A study of Bos taurus with 30 samples.

Results

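The enzymes described here turn fatty acids and pyruvate into acetyl-CoA and oxidise it in mitochondria. They were taken as a list of 58 genes of beta-oxidation, the tricarboxylic acid (TCA) cycle and pyruvate dehydrogenase, and 49 of them were matched by gene symbol to the array, out of 9155 genes with a symbol. Of the 49, 28 belong to beta-oxidation, 14 to the TCA cycle or its cytosolic counterparts and 7 to pyruvate dehydrogenase, its kinases and pyruvate carboxylase. Where a gene had several probe sets, the one with the highest mean over all arrays stands for it. Not matched, and not analysed here, were CPT1A, ACSL4, ACAD8, ETFDH, EHHADH, IDH3B, DLST, MDH1 and PDK1.

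The corpora lutea came from 30 Angus crossbred heifers, 5 in each of 6 groups, and each gland gave 1 Affymetrix bovine array. The corpus luteum is the progesterone-secreting gland that forms from the ovulated follicle, and prostaglandin F2α (PGF2α) is the hormone that ends its life in mid cycle, while the early gland is known to resist it. On day 4 of the estrous cycle (early) and on day 11 (mid cycle), glands were taken at 0 h from heifers given saline and at 4 h or 24 h from heifers given PGF2α. The study compared how the early and the mid-cycle gland respond. No group received saline and was sampled at 4 h or 24 h, so the injection and the hours that passed cannot be told apart. Ages are not given in the labels.

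Fatty acids are joined to coenzyme A by acyl-CoA synthetases, carried into mitochondria by the carnitine shuttle and shortened in repeated rounds of dehydrogenation, hydration, a further dehydrogenation and thiolysis. Pyruvate dehydrogenase makes acetyl-CoA from pyruvate and is switched off by its kinases. Both supplies meet in citrate synthase, and in luteal cells the TCA cycle also provides citrate for lipid synthesis and reducing power for steroid synthesis.

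Values are log2 signals as deposited. Array medians lay between 6.01 and 6.16, and arrays of 1 group correlated at 0.978 to 0.994 over all probe sets. The day 4, 24 h array of replicate 1 lay among the day 4, 0 h arrays on the main axis of variation, and the day 11, 4 h array of replicate 1 had a 3′ minus 5′ difference of -1.40 for the control transcript EF1A, against -2.64 to -2.10 on the other arrays. Counts without each of these arrays are given with the comparisons that use them. Steroidogenic markers identified the tissue as luteal: 11 measured genes, STAR, CYP11A1 and HSD3B1 among them, had a mean log2 level of 11.42 to 11.63 on day 4 and 11.68 to 11.91 on day 11 at 0 h. A signal below the median of all probe sets may be near background, where a change is understated, though detection calls are not given. Of the enzymes, ACSM1 and CPT1B lay below that median in their mean over the arrays. So did ACOX2 on day 4 at 0 h and 4 h and on day 11 at 24 h (means 5.72 ± 0.16, 5.33 ± 0.24 and 5.70 ± 0.27, SD, n = 5) and ACAD9 on day 11 at 4 h (5.88 ± 0.20). Not every group of ACSM1 and CPT1B was low. On day 11 ACSM1 averaged 7.60, 7.19 and 7.02 at 0 h, 4 h and 24 h, and CPT1B averaged 6.39 at 24 h. Differences below are log2 differences ± their standard error (SE) from limma, p values are adjusted over all 24016 probe sets tested, and a gene is called, or said to rise or fall, at an adjusted p under 0.05.

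Before PGF2α, the mid-cycle gland held more transcript of the beta-oxidation enzymes than the early gland. The TCA cycle genes were divided, with the cytosolic counterparts higher and most called mitochondrial enzymes lower. At 0 h, 20 of the 49 genes were higher on day 11 and 7 were lower, where 17.9% and 26.5% of all named genes were. Beta-oxidation had 14 genes higher and 2 lower of 28, with a median difference of 0.32. The TCA cycle had 4 higher and 4 lower of 14, and pyruvate dehydrogenase 2 higher and 1 lower of 7. The median over all named genes was -0.02. Of the 27 calls, 18 held under every alternative analysis at the same threshold.

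ACSM1 (Entrez Gene 282576), a mitochondrial synthetase for medium-chain fatty acids, gave the largest difference. It read 3.22, 3.63, 4.36, 4.46 and 3.44 on the day 4 arrays and 8.29, 5.95, 7.81, 8.72 and 7.24 on the day 11 arrays at 0 h. The day 4 glands sat near background and the day 11 glands spread widely, without overlap. The difference was 3.78 ± 0.52 (adjusted p = 1.67e-06), and since the early level is near background the fold is not well determined. No change of ACSM1 from 0 h was called at 4 h or 24 h on either day. The values were 3.46, 3.71, 3.48, 3.25 and 3.22 at 4 h and 3.27, 3.20, 3.47, 3.11 and 3.56 at 24 h on day 4. On day 11 they were 7.34, 5.74, 6.83, 7.89 and 8.15 at 4 h and 4.88, 8.76, 6.28, 7.84 and 7.33 at 24 h, within or close to the range at 0 h apart from a low 24 h array. Near background a fall on day 4 could not be seen. With SDs of 0.96 to 1.49 in the day 11 groups, a modest change could not be resolved.

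ACSL3 (Entrez Gene 100138312), a long-chain synthetase of lipid droplets and endoplasmic reticulum, was lower on day 11. Its 0 h values were 9.05, 9.06, 9.14, 9.10 and 8.89 on day 4 and 8.46, 8.48, 8.31, 8.20 and 8.15 on day 11. The groups did not overlap, and the difference was -0.73 ± 0.13 (adjusted p = 7.21e-05). The other probe sets of ACSL3 differed by -0.10 and 0.03, and the call was lost when its probe sets were averaged (-0.27, adjusted p = 0.205).

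Most measured genes of later steps of the oxidation spiral were called higher in the mid-cycle gland. Most acyl-CoA dehydrogenases, its first step, were not called. The steps were not tested against each other, and the uncalled ACADSB differed by as much as the called ECHS1. Of the 6 measured acyl-CoA dehydrogenases ACADS was higher and ACAD9 lower, while ACADM (0.25 ± 0.12), ACADL (0.18 ± 0.15), ACADSB (0.35 ± 0.21) and ACADVL (-0.13 ± 0.09) were not called. Of the 7 measured genes of the mitochondrial hydratase, dehydrogenase and thiolase steps 6 were higher: ECHS1, the short-chain enoyl-CoA hydratase, by 0.32 ± 0.08, HADH, the hydroxyacyl-CoA dehydrogenase, by 0.47 ± 0.12, HADHA, a subunit of the trifunctional protein, by 0.50 ± 0.11, HSD17B10 by 0.55 ± 0.10, and the thiolases ACAA2 and ACAT1. The calls of the last pair were fragile, since leaving out any of 7 arrays for ACAA2 and any of 6 for ACAT1 ended the call (adjusted p up to 0.137 and 0.104). The trifunctional partner HADHB differed by 0.27 ± 0.12 (95% interval 0.02 to 0.51) and was not called.

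ETFA, a subunit of the flavoprotein that takes electrons from acyl-CoA dehydrogenases, was higher by 0.75 ± 0.10 (adjusted p = 1.21e-06), with arrays at 9.91 to 10.37 on day 4 and 10.69 to 10.99 on day 11. ACADS (Entrez Gene 511222), the short-chain acyl-CoA dehydrogenase, was 8.36, 8.53, 8.45, 8.51 and 8.77 on day 4 and 9.29, 8.92, 8.99, 9.003 and 9.26 on day 11, a difference of 0.57 ± 0.09. The day 11 values all lay above those of day 4 for both genes. ACOX2, the peroxisomal oxidase of branched-chain acyl-CoAs and bile acid intermediates, was higher by 1.37 ± 0.21 (adjusted p = 6.79e-06). ACAD9 (Entrez Gene 617428), a dehydrogenase known also for assembling respiratory complex I, went the other way, with 6.88, 6.82, 7.12, 7.04 and 6.95 on day 4 and 6.24, 6.37, 6.24, 6.37 and 6.38 on day 11. Its difference was -0.64 ± 0.10 without overlap, but its other, dimmer probe set showed 0.00.

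Within the TCA cycle, SUCLA2 (Entrez Gene 511090), the ADP-forming subunit of succinyl-CoA synthetase, was lower on day 11. It read 11.50, 11.21, 11.38, 11.21 and 10.81 on day 4 and 10.42, 10.54, 10.32, 10.001 and 10.42 on day 11, with a difference of -0.88 ± 0.14. Every day 11 value was below every day 4 value. IDH3A, the catalytic subunit of NAD-dependent isocitrate dehydrogenase, was lower by the same order (-0.74 ± 0.14). SUCLG1 and MDH2 were also called lower, and OGDH was the mitochondrial enzyme called higher. The calls of SUCLG1, MDH2 and OGDH were lost when any of 5, 7 and 3 arrays was left out (adjusted p up to 0.131, 0.114 and 0.113). CS (Entrez Gene 280682), citrate synthase, did not separate the days, with 11.65, 11.49, 11.64, 11.63 and 11.82 on day 4 and 11.53, 11.72, 11.59, 11.45 and 11.64 on day 11 and a difference of -0.06 ± 0.07 (95% interval -0.19 to 0.08). The cytosolic enzymes were higher on day 11: ACO1 (aconitase and iron regulatory protein) by 0.34 ± 0.10, ME1 (malic enzyme) by 0.52 ± 0.15 and IDH1 by 0.31 ± 0.10. The IDH1 call was lost without day 4 replicate 4 or day 11 replicate 5 (adjusted p up to 0.0586) and with the mean of its probe sets.

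The matched kinases of the list, PDK4 and PDK2, were both higher in the mid-cycle gland. PDK4 (Entrez Gene 507367), the kinase known to be induced in fasting, read 7.46, 7.46, 5.89, 7.37 and 6.45 on day 4 and 7.48, 7.82, 8.42, 8.76 and 9.18 on day 11 at 0 h, which is 1.41 ± 0.33 (adjusted p = 0.00131). The day 11 arrays all read above the day 4 arrays, though the lowest of them by little. PDK2 was higher by 0.72 ± 0.10 (adjusted p = 3.07e-06). A further kinase outside the list, PDK3, did not have a higher mean on day 11. It averaged 10.33 ± 0.12 (SD) on day 4 and 10.22 ± 0.16 on day 11 at 0 h. DLAT (Entrez Gene 512723), the acetyltransferase core of the complex, was lower: 9.09, 9.12, 9.17, 8.83 and 9.19 on day 4 and 8.64, 8.67, 8.34, 8.26 and 8.62 on day 11, a difference of -0.57 ± 0.10. The other catalytic subunits were not called.

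Marker genes of cell types differed between the days as well. At 0 h, 6 of 11 macrophage and monocyte markers were higher on day 11 and none was lower, 8 of 12 endothelial markers were higher and 1 lower, and 6 of 10 fibroblast markers were lower and 2 higher. Of 11 steroidogenic markers 6 were higher and 2 lower. In whole tissue, fewer cells of a type and less RNA per cell cannot be told apart, and the part of the cell mixture in these differences was not tested. In the other genes of fatty acid oxidation, 16 of 30 were higher and 3 lower, among them the fatty acid transporter CD36 (2.90 ± 0.34) and PHYH, which starts phytanic acid breakdown (1.18 ± 0.13). Of the fatty acid synthesis genes 7 of 11 were higher and none lower, such as ACLY, which makes acetyl-CoA from citrate (1.10 ± 0.14). The other TCA cycle and pyruvate genes had 4 higher and 6 lower of 25, near the 17.9% and 26.5% of named genes. Among them LDHA, the muscle-type lactate dehydrogenase subunit, was lower, at -2.44 ± 0.17.

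By 4 h after PGF2α the mid-cycle gland had lost transcript of several enzymes and the early gland had no called change. On day 11, 1 gene rose and 14 fell of 49, where 10.1% and 13.1% of named genes did, with a median difference of -0.16. Of the 14, 8 belonged to beta-oxidation, 3 to the TCA cycle and 3 to pyruvate dehydrogenase. On day 4, limma called 0 genes, against 5.28% of named genes in either direction, and 9 passed an unadjusted p under 0.05 (2 higher, 7 lower). Array weights called 3 and the replicate block 1. The median difference on day 4 was -0.10. Testing the days against each other, limma called 0 of the 49 responses as different at 4 h (1.40% of named genes were), with 6 at an unadjusted p under 0.05. So the larger count on day 11 is not shown to be a different response.

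Cell markers moved by 4 h too. On day 11, 4 of 11 steroidogenic markers fell and none rose, with mean log2 levels of 11.68 to 11.91 at 0 h and 11.24 to 11.49 at 4 h. Neutrophil and eosinophil markers had 4 of 9 higher and none lower (5.02 to 5.28 and then 5.60 to 6.49), macrophage and monocyte markers 3 of 11 higher and none lower (7.72 to 8.43 and then 7.91 to 9.53) and endothelial markers 5 of 12 higher and 1 lower. The steroidogenic and neutrophil levels did not overlap between the times, and the macrophage levels did. On day 4, 1 of 11 steroidogenic markers fell (11.42 to 11.63 and then 11.19 to 11.38), 1 of 9 neutrophil and eosinophil markers rose (5.08 to 5.32 and then 5.51 to 5.99) and 4 of 12 endothelial markers rose and 1 fell. Their part in the changes of the enzymes was not tested.

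ACSL5, a long-chain acyl-CoA synthetase, was the gene that rose on day 11 at 4 h. Its arrays ran from 7.87 to 8.50 at 0 h and from 9.02 to 9.86 at 4 h, and it rose by 0.93 ± 0.16 (adjusted p = 0.000145). HADH fell by 0.60 ± 0.12, with arrays at 10.09 to 10.40 and then 9.09 to 10.05. ACAD9 fell by 0.44 ± 0.10, and its 4 h values of 5.72, 6.08, 5.94, 5.62 and 6.02 all lay below the 0 h values. DLAT read 7.63, 8.15, 8.21, 7.78 and 8.03 at 4 h and fell by 0.55 ± 0.10. These were the 4 of 15 calls that held under every alternative; ACAD9's other probe set read -0.06.

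The remaining falls were smaller, except that of ACAA2. Its mean went from 9.82 ± 0.20 (SD) at 0 h to 9.26 ± 0.54 at 4 h. PDK2 fell by 0.41 ± 0.10, ECHS1 fell by 0.36 ± 0.08 and ETFA fell by 0.36 ± 0.10, each called except when the arrays of this comparison were fitted alone. CS moved from the 0 h values above to 11.39, 11.42, 11.38, 11.27 and 11.31, below all of them, and fell by 0.23 ± 0.07. The calls of CPT2, ACADS, ACAA2, ECI1, SUCLG1, FH and PDHA1 were each lost when a single array was left out, with adjusted p values up to 0.165. Without day 11, 0 h replicate 5 the count went from 15 to 9, and without the 4 h array of unusual EF1A signal it was 12. SUCLG1 values were 10.20, 9.88, 9.94, 9.70 and 9.99 at 4 h. ACADS values were 8.65, 8.86, 8.83, 8.85 and 8.95, overlapping those at 0 h at the margin. No peroxisomal gene was called, with HSD17B4, the peroxisomal multifunctional enzyme, at -0.28 ± 0.11 and ACOX2 at -0.44 ± 0.21.

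PDK4 did not pass the test at 4 h on either day. Its values were 7.97, 8.03, 7.29, 7.62 and 7.73 on day 4 and 9.52, 7.73, 9.34, 8.90 and 9.70 on day 11. They overlapped the 0 h values on both days, with differences of 0.80 ± 0.33 (adjusted p = 0.215) and 0.71 ± 0.33 (adjusted p = 0.15). On day 4 the smallest p values at 4 h belonged to DLAT (-0.30 ± 0.10, adjusted p = 0.105), HADH (-0.34 ± 0.12), DECR1, a reductase for unsaturated fatty acids (-0.35 ± 0.12), and ACADS (-0.24 ± 0.09). DLAT on day 4 read 8.78, 8.78, 8.65, 8.80 and 8.86 at 4 h, below all 0 h values but the lowest. Among the pyruvate genes outside the list, PDP1, the phosphatase that reactivates pyruvate dehydrogenase, rose at 4 h on both days, by 0.62 ± 0.14 on day 4 and 1.02 ± 0.14 on day 11.

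At 24 h the mid-cycle gland had lost transcript across all 3 groups of enzymes, with the largest share of genes in pyruvate dehydrogenase and the TCA cycle. On day 11, 27 of 49 genes fell and 6 rose, where 20.0% and 17.9% of named genes did. The median difference was -0.40 against -0.01 over all named genes. Pyruvate dehydrogenase had 5 of 7 lower and 1 higher (median -0.74), the TCA cycle 10 of 14 lower and 3 higher (median -0.42) and beta-oxidation 12 of 28 lower and 2 higher (median -0.28). The 0 h and 24 h arrays did not overlap for 30 of the 49 genes, against 27.9% of named genes. Of the 33 calls, 30 held under every alternative.

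**Figure D1:**
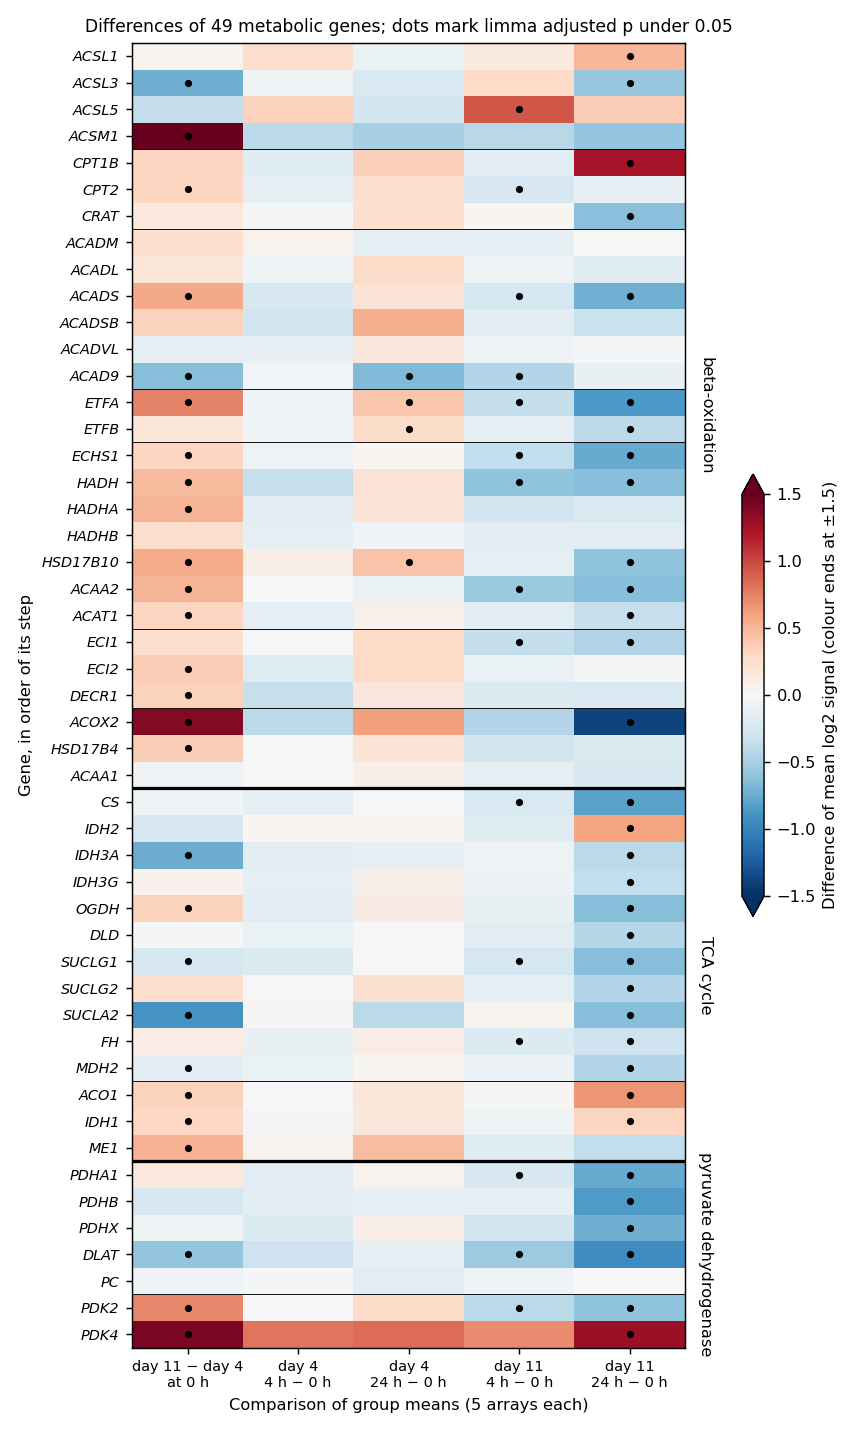
Heat map of the log2 difference of each of the 49 genes (rows, grouped by role) in 5 comparisons (columns), with a dot where limma's adjusted p is under 0.05. In the day 11, 24 h column 27 genes are called lower and 6 higher, while the day 4, 4 h column holds no dot.

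The subunits of pyruvate dehydrogenase fell together. PDHA1 (Entrez Gene 407109), the E1 alpha subunit, read 10.89, 11.07, 11.06, 10.98 and 11.14 at 0 h, 10.57, 10.78, 10.92, 10.67 and 11.02 at 4 h and 10.17, 10.33, 10.18, 10.36 and 10.29 at 24 h. The 24 h values were below every earlier one, and PDHA1 fell by 0.76 ± 0.07 (adjusted p = 5.03e-09). PDHB (Entrez Gene 613610), its E1 beta partner, read 10.05, 10.04, 10.11, 10.21 and 10.22 at 0 h, 9.85, 10.12, 10.07, 9.70 and 10.24 at 4 h and 9.15, 9.21, 9.29, 9.44 and 9.30 at 24 h. It too separated fully at 24 h and fell by 0.85 ± 0.11. DLAT, which carries the acetyl group, went to 7.68, 7.61, 7.60, 7.50 and 7.47 at 24 h and fell by 0.93 ± 0.10 (adjusted p = 4.51e-08), and its other probe sets gave -0.96 and -1.01. PDHX, which tethers the E3 subunit, fell by 0.74 ± 0.11. Pyruvate carboxylase (PC), which feeds the cycle through oxaloacetate, differed by -0.00 ± 0.13 (95% interval -0.27 to 0.27).

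For PDHA1 and PDHB the less bright probe sets moved less. They gave -0.54, 0.12 and -0.15 for PDHA1, and -0.15 and -0.26 for PDHB. Averaged over its genes, each taken relative to its own mean over the 30 arrays, the complex with pyruvate carboxylase lay at -0.02 to 0.20 on the day 11, 0 h arrays and at -0.57 to -0.52 on the 24 h arrays. The day 4 arrays at 0 h and 24 h lay at 0.14 to 0.43 and 0.04 to 0.37.

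The matched kinases of the list, PDK4 and PDK2, moved in opposite directions. PDK4 read 9.23, 9.75, 9.55, 9.59 and 9.999 at 24 h, above all 0 h values, and rose by 1.29 ± 0.33 (adjusted p = 0.00315). Its other probe sets rose by 1.38 and 1.18. PDK2 fell by 0.61 ± 0.10, with arrays at 8.45 to 9.05 and then 7.83 to 8.24. Outside the list, the mean of the kinase PDK3 went from 10.22 ± 0.16 (SD) at 0 h to 9.90 ± 0.16 at 24 h on day 11. That of the phosphatase PDP1 went from 7.34 ± 0.31 to 7.96 ± 0.11. On day 4 at 24 h PDK4 read 7.23, 7.98, 7.85, 8.09 and 7.64, a difference of 0.83 ± 0.33 that was not called (adjusted p = 0.156). The 24 h change in PDK4 was not shown to differ between the days (0.46 ± 0.47, 95% interval -0.50 to 1.42, adjusted p = 0.57).

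**Figure D2:**
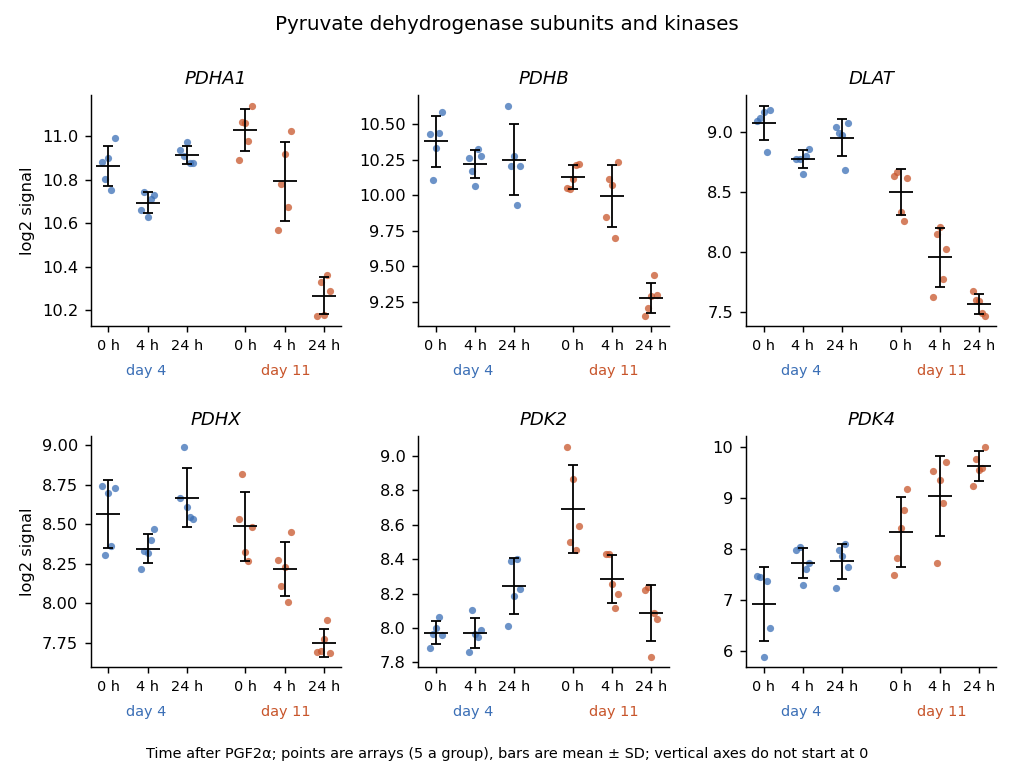
Log2 signal of 4 pyruvate dehydrogenase subunits and 2 kinases on each array (points), by time after PGF2α and day, with mean ± SD (5 arrays a group; axes do not start at 0). At 24 h on day 11 the subunits lie below all 0 h arrays of that day, while PDK4 lies above them.

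In the TCA cycle, 10 of 11 mitochondrial genes fell and IDH2 rose. CS, the entry step, read 10.80, 10.82, 10.75, 10.91 and 10.63 at 24 h and fell by 0.81 ± 0.07 (adjusted p = 1.79e-10), the smallest p of the 49 genes. All 24 h arrays lay below all arrays of the other groups. The other, dimmer probe set of CS moved by -0.51 without a call. Citrate is next turned to oxoglutarate by isocitrate dehydrogenases: IDH3A fell by 0.40 ± 0.14 and IDH3G, a regulatory subunit, fell by 0.37 ± 0.07. IDH2, the NADP-dependent mitochondrial form, rose by 0.59 ± 0.11, from 8.87 to 9.23 at 0 h to 9.38 to 9.87 at 24 h. The IDH3A call was lost without 0 h replicate 2 or 5 or 24 h replicate 2 or 5 (adjusted p up to 0.097).

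The oxoglutarate dehydrogenase subunits OGDH and DLD fell by 0.64 ± 0.12 and 0.43 ± 0.11. The succinyl-CoA synthetase subunits followed. SUCLG1 (Entrez Gene 509983), the shared alpha subunit, read 10.31, 10.32, 10.04, 10.06 and 10.29 at 0 h and 9.52, 9.59, 9.56, 9.64 and 9.53 at 24 h, without overlap, and fell by 0.64 ± 0.09. SUCLA2 read 10.68, 10.15, 10.46, 10.26 and 10.36 at 4 h and 9.62, 9.76, 10.03, 9.35 and 9.78 at 24 h and fell by 0.63 ± 0.14. The highest 24 h array of SUCLA2 overlapped the lowest at 0 h, and its dimmer probe set gave 0.01. SUCLG2, the GDP-forming beta subunit, fell by 0.44 ± 0.11. FH, fumarase, fell by 0.31 ± 0.07. MDH2 (Entrez Gene 281306), the malate dehydrogenase that closes the cycle, read 12.34, 12.39, 12.40, 12.44 and 12.51 at 0 h, 12.34, 12.26, 12.34, 12.28 and 12.41 at 4 h and 12.01, 11.98, 11.96, 12.04 and 11.92 at 24 h, and fell by 0.44 ± 0.06. Its 24 h arrays stayed within a narrow band below all others. Over the 11 genes the mean relative level was -0.09 to 0.11 at 0 h and -0.42 to -0.34 at 24 h.

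No measured cytosolic counterpart was called lower on its brightest probe set. ACO1 read 8.96, 8.95, 9.08, 9.19 and 8.81 at 0 h, 8.80, 9.24, 9.06, 8.82 and 9.18 at 4 h and 9.59, 9.98, 9.45, 9.76 and 9.54 at 24 h, and it rose by 0.67 ± 0.10 (adjusted p = 3.7e-06). Only the 24 h arrays were high. IDH1 rose by 0.33 ± 0.10 on its brightest probe set, while another of its probe sets fell by 0.61, so its direction is uncertain. The IDH1 call was also lost without 24 h replicate 5 (adjusted p = 0.0513) and when its probe sets were averaged (0.03, adjusted p = 0.882). ME1 differed by -0.37 ± 0.15 and was not called.

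**Figure D3:**
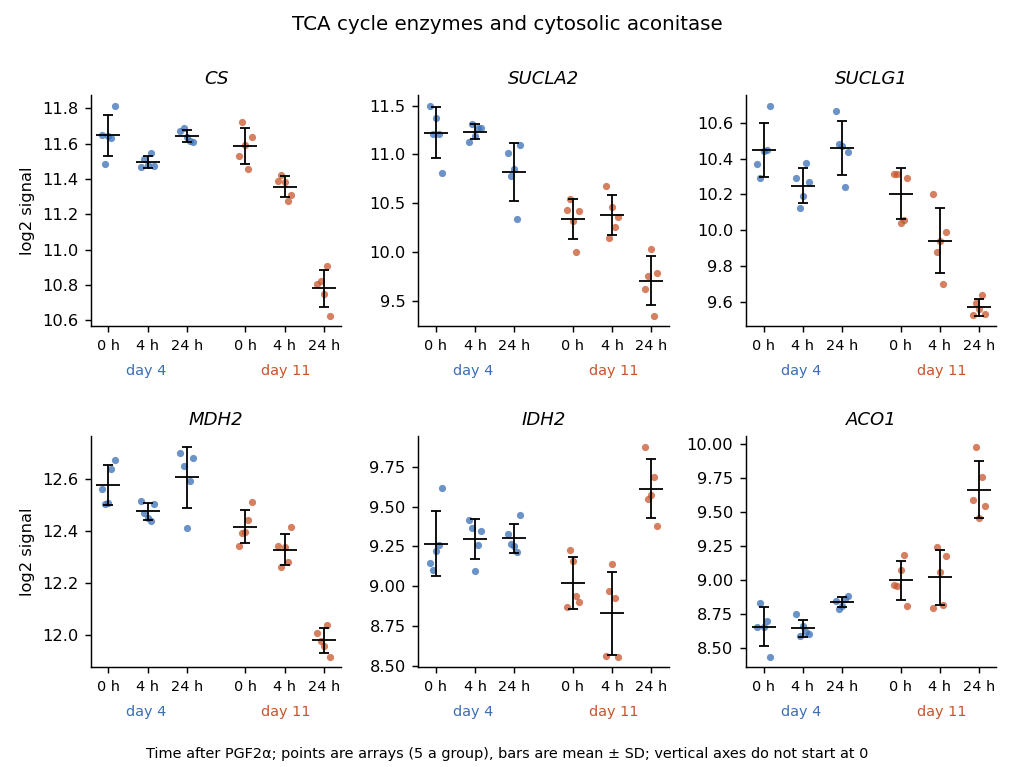
Log2 signal of 5 mitochondrial TCA cycle enzymes and cytosolic aconitase (ACO1) on each array (points), by time after PGF2α and day, with mean ± SD (5 arrays a group; axes do not start at 0). CS, SUCLG1 and MDH2 drop on day 11 at 24 h, IDH2 and ACO1 rise there, and the day 4 groups stay close to each other apart from SUCLA2.

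Beta-oxidation was less uniform. Among synthetases, ACSL1 rose by 0.50 ± 0.15 and ACSL3 fell by 0.56 ± 0.13. ACSL3 had read 8.51, 8.34, 8.66, 8.53 and 9.06 at 4 h and read 7.14, 7.998, 7.75, 7.94 and 7.95 at 24 h, below every 0 h array with replicate 1 the lowest. Its other probe sets fell further, by 1.02 and 0.94. In the carnitine shuttle, CPT1B, the muscle-type carnitine palmitoyltransferase, rose by 1.23 ± 0.22 (adjusted p = 4.82e-05), from 4.63 to 5.61 at 0 h to 6.05 to 6.83 at 24 h. CRAT, which exchanges acetyl groups with carnitine, fell by 0.63 ± 0.12. CPT2, the inner-membrane transferase, differed by -0.12 ± 0.08 and was not called.

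Of 6 acyl-CoA dehydrogenases only ACADS was called at 24 h. It read 8.37, 8.45, 8.35, 8.31 and 8.41, below all 0 h and 4 h arrays of that day, and fell by 0.72 ± 0.09 (adjusted p = 2.2e-07). The medium-chain ACADM (0.00 ± 0.12, 95% interval -0.25 to 0.25), the very-long-chain ACADVL (-0.03 ± 0.09), ACADL (-0.19 ± 0.15) and the branched-chain ACADSB (-0.32 ± 0.21) were not. ACAD9 had returned to 6.12, 6.18, 6.22, 6.31 and 6.19, within or just below its 0 h range. The electron-transfer subunits both fell, ETFA by 0.87 ± 0.10 (adjusted p = 7.75e-08, 24 h arrays at 9.82 to 10.11) and ETFB by 0.40 ± 0.08.

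Of the 7 hydratase, dehydrogenase and thiolase genes 5 fell. ECHS1 fell by 0.75 ± 0.08, HADH fell by 0.64 ± 0.12, ACAA2 fell by 0.64 ± 0.19 and HSD17B10 fell by 0.60 ± 0.10. ACAT1 fell by 0.34 ± 0.11, a call that was lost without 0 h replicate 5 or 24 h replicate 1 (adjusted p up to 0.0899). The trifunctional protein subunits were not called, with HADHA at -0.23 ± 0.11 and HADHB at -0.17 ± 0.12. ECI1, an isomerase for unsaturated fatty acids, fell by 0.45 ± 0.10, while ECI2 (-0.02 ± 0.11) and DECR1 (-0.23 ± 0.12) were not called. In peroxisomes ACOX2 fell by 1.39 ± 0.21, the largest difference of the 49 genes, from 6.54 to 7.92 at 0 h to 5.29 to 6.01 at 24 h. HSD17B4 and the peroxisomal thiolase ACAA1 differed by -0.22 ± 0.11 and -0.24 ± 0.10.

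**Figure D4:**
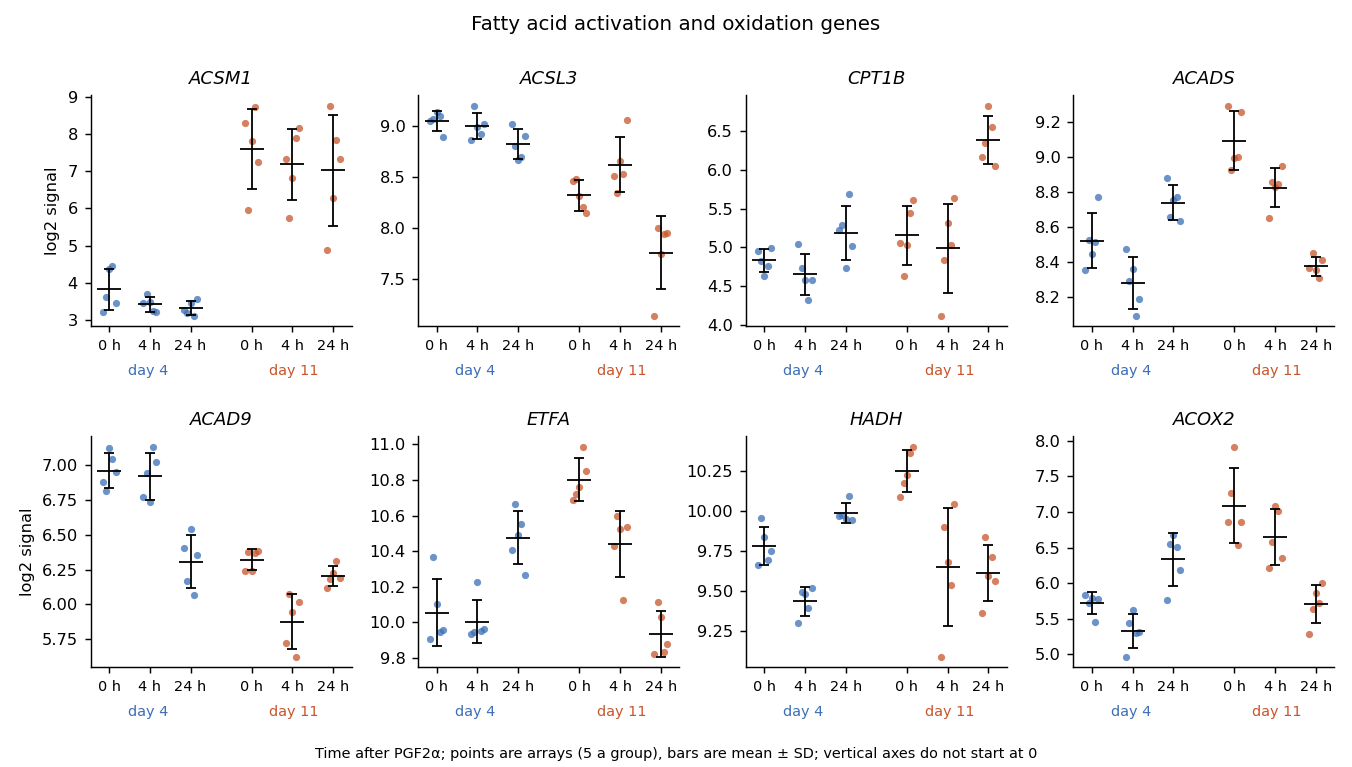
Log2 signal of 8 fatty acid activation and oxidation genes on each array (points), by time after PGF2α and day, with mean ± SD (5 arrays a group; axes do not start at 0). ACSM1 separates the days at all times, ACADS, ETFA and ACOX2 rise from day 4 to day 11 at 0 h and are low at 24 h on day 11, and CPT1B is high there.

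Related genes outside the list moved as follows on day 11 at 24 h. Of 30 other fatty acid oxidation genes 16 fell and 2 rose; CD36 rose by 2.33 ± 0.34, the synthetase ACSL6 rose by 2.22 ± 0.21, the fatty acid binding protein FABP3 fell by 1.25 ± 0.18 and the thioesterase ACOT2 fell by 1.22 ± 0.14. Of 25 other TCA cycle and pyruvate genes 15 fell and 2 rose, with the citrate carrier SLC25A1 at -2.09 ± 0.19, LDHA at 1.63 ± 0.17, the aspartate aminotransferase GOT1 at -1.36 ± 0.12 and OGDHL at -1.27 ± 0.28. Fatty acid synthesis had 10 of 11 lower and none higher, led by ACSS2 (-2.23 ± 0.20), which activates acetate, and the elongase ELOVL6 (-2.02 ± 0.18). Of 13 regulators of oxidative metabolism 3 rose and 2 fell, including PPARG (0.92 ± 0.16), a lipid-sensing nuclear receptor, and the mitochondrial deacetylase SIRT3 (-1.06 ± 0.14). Over all named genes 17.9% rose and 20.0% fell, so the total for the regulators is near the share over all named genes.

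The cell markers moved over the same interval. Of 11 steroidogenic luteal markers 10 fell and none rose, and their mean log2 level went from 11.68 to 11.91 at 0 h to 10.16 to 10.84 at 24 h on day 11. Of 11 macrophage and monocyte markers 7 rose and none fell (7.72 to 8.43 and then 9.38 to 10.13), while 7 of the 11 genes marking T and NK cells rose (5.09 to 5.42 and then 5.82 to 6.42). Endothelial markers had 5 of 12 lower and 1 higher (7.68 to 7.89 and then 7.47 to 7.65), and fibroblast markers 3 of 10 higher (10.48 to 10.86 and then 10.85 to 11.19). Of 9 neutrophil and eosinophil markers 3 rose and none fell (5.02 to 5.28 and then 5.88 to 6.61), and of 9 smooth muscle and pericyte markers 1 rose and 1 fell. Of 6 adipocyte markers FABP4 (4.14 ± 0.32) and CFD (0.87 ± 0.28) rose and LIPE fell (-0.95 ± 0.21), and the list's mean level was 5.25 to 5.51 and then 5.96 to 6.18; the defining ADIPOQ, LEP and CIDEC stayed near background. None of 5 erythrocyte markers was called (24 h mean level 3.69 to 4.00). Their part in the changes of the 49 genes was not tested.

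Between 4 h and 24 h on day 11, 20 genes fell and 5 rose (14.3% and 16.2% of named genes), and 19 of the 25 calls held under every alternative. The falls included PDHB (-0.72 ± 0.11), SUCLA2 (-0.67 ± 0.14), CRAT (-0.66 ± 0.12), ACSL3 (-0.87 ± 0.13) and ACOX2 (-0.94 ± 0.21). CPT1B rose by 1.40 ± 0.22, IDH2 by 0.78 ± 0.11 and ACO1 by 0.64 ± 0.10. HADH, which was already low at 4 h, changed by -0.04 ± 0.12 over the same hours. Neither matched kinase of the list passed the test (PDK2 -0.20 ± 0.10, PDK4 0.59 ± 0.33). Without the 4 h array of unusual EF1A signal the count was also 25. Over the same hours 7 of 11 steroidogenic markers fell and none rose (11.24 to 11.49 and then 10.16 to 10.84), 5 of 11 macrophage and monocyte markers rose and none fell (mean level 7.91 to 9.53 and then 9.38 to 10.13, overlapping) and 6 of 10 fibroblast markers rose, and their part was not tested.

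The early gland showed few changes at 24 h. On day 4, 3 genes rose and 1 fell of 49, where 3.03% and 4.73% of named genes did, so the total is near the share over all named genes. The median difference was 0.11. ETFA rose by 0.42 ± 0.10, ETFB rose by 0.28 ± 0.08 and HSD17B10 rose by 0.43 ± 0.10. ACAD9 fell: it read 6.77, 6.95, 6.73, 7.13 and 7.03 at 4 h and 6.41, 6.17, 6.54, 6.07 and 6.35 at 24 h, all below the earlier arrays. It fell by 0.66 ± 0.10 (adjusted p = 0.000515) and held under every alternative, though its dimmer probe set gave -0.02. ETFA's call was lost without 24 h replicate 2 or 4, ETFB's without 0 h replicate 1 or 3 or 24 h replicate 2 or 4, and HSD17B10's without 24 h replicate 4. The count became 2 without 24 h replicate 2, 1 without 24 h replicate 4, and 6 without replicate 1, the array that resembled 0 h. Array weights gave 10. No rise was called without 24 h replicate 4, at the threshold of 0.01 or with only the arrays compared, each of which left 1 gene lower. Of 11 steroidogenic markers 3 rose and none fell, with levels of 11.42 to 11.63 at 0 h and 11.67 to 11.89 at 24 h that did not overlap. No macrophage, T and NK, neutrophil, endothelial or fibroblast marker was called, and the part of the markers was not tested.

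On day 4 the same genes gave small 24 h differences. At 24 h on day 4, CS read 11.67, 11.69, 11.64, 11.61 and 11.61 and differed from 0 h by -0.00 ± 0.07 (95% interval -0.14 to 0.13). PDHA1 read 10.88, 10.80, 10.90, 10.75 and 10.99 at 0 h, 10.66, 10.74, 10.63, 10.71 and 10.73 at 4 h and 10.94, 10.91, 10.97, 10.87 and 10.88 at 24 h, with a 24 h difference of 0.05 ± 0.07. PDHB read 10.43, 10.10, 10.33, 10.44 and 10.59 at 0 h, 10.26, 10.17, 10.07, 10.32 and 10.27 at 4 h and 10.63, 10.21, 10.28, 9.93 and 10.21 at 24 h. The 3 groups of PDHB overlapped. DLAT read 9.04, 8.99, 8.98, 8.68 and 9.07 at 24 h (-0.12 ± 0.10). SUCLA2 read 11.13, 11.31, 11.18, 11.27 and 11.27 at 4 h and 11.02, 10.78, 10.85, 10.33 and 11.10 at 24 h, and its difference of -0.40 ± 0.14 was not called (adjusted p = 0.0919). No TCA cycle or pyruvate dehydrogenase gene was called.

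The same held for the other TCA cycle genes with values on every array. SUCLG1 on day 4 read 10.37, 10.29, 10.44, 10.45 and 10.70 at 0 h, 10.29, 10.13, 10.19, 10.37 and 10.27 at 4 h and 10.67, 10.48, 10.47, 10.24 and 10.44 at 24 h. MDH2 read 12.56, 12.50, 12.51, 12.64 and 12.67 at 0 h, 12.51, 12.47, 12.45, 12.44 and 12.50 at 4 h and 12.70, 12.65, 12.41, 12.59 and 12.68 at 24 h. For both, the 24 h arrays overlapped those at 0 h, and the mean was lowest at 4 h. ACO1 read 8.66, 8.83, 8.66, 8.70 and 8.44 at 0 h, 8.75, 8.59, 8.66, 8.62 and 8.61 at 4 h and 8.85, 8.79, 8.81, 8.86 and 8.88 at 24 h, with a 24 h difference of 0.18 ± 0.10 (adjusted p = 0.349). CS at 4 h on day 4 read 11.47, 11.51, 11.48, 11.54 and 11.47. In beta-oxidation, ACSL3 read 8.86, 9.20, 8.99, 8.92 and 9.02 at 4 h and 9.02, 8.81, 8.67, 8.70 and 8.90 at 24 h. ACADS read 8.48, 8.29, 8.36, 8.09 and 8.19 at 4 h and 8.88, 8.66, 8.76, 8.77 and 8.63 at 24 h, lowest at 4 h. Other differences at 24 h that were not called were ACOX2 (0.62 ± 0.21), ME1 (0.46 ± 0.15), CPT2 (0.24 ± 0.08), ECI1 (0.29 ± 0.10) and ACSL5 (-0.29 ± 0.16).

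From 4 h to 24 h on day 4 many of the enzymes rose. Of 49 genes 16 rose and 3 fell (10.2% and 9.84% of named genes), 12 of the rises in beta-oxidation. The largest were ACOX2 (1.00 ± 0.21), ACADSB (0.82 ± 0.21), HADH (0.55 ± 0.12), DECR1 (0.52 ± 0.12), ECI2 (0.48 ± 0.11) and ETFA (0.47 ± 0.10). ACSL5 (-0.64 ± 0.16) and ACAD9 (-0.62 ± 0.10) fell. Of the 19 calls 11 held under every alternative, and DECR1 was lost with the mean of its probe sets. Leaving out 1 array gave 13 to 18 calls, with 18 when it was the day 4, 24 h array of replicate 1. The call of PDHA1 ended when any of 10 arrays was left out, and that of SUCLA2 for any of 8. Over the same hours 5 of 11 steroidogenic markers rose and none fell, with a mean log2 level of 11.19 to 11.38 at 4 h and 11.67 to 11.89 at 24 h, and 5 of 12 endothelial markers fell and 1 rose. Their part was not tested.

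The 24 h response differed between the days for most of the genes. Tested as day 11 minus day 4, 27 of 49 genes responded lower on day 11 and 6 higher, where 15.0% and 14.8% of named genes did. By group, beta-oxidation had 13 lower and 4 higher of 28, the TCA cycle 9 lower and 2 higher of 14, and pyruvate dehydrogenase 5 lower of 7. The median over the 49 genes was -0.44. The largest differences were those of ACOX2 (-2.00 ± 0.29, adjusted p = 8.59e-06) and ETFA (-1.29 ± 0.14, adjusted p = 1.03e-07), whose values were positive on day 4 and negative on day 11. Of the 33 calls 25 held under every alternative. The 6 higher responses became 3 without day 11, 0 h replicate 1 or day 11, 24 h replicate 4, and 1 at the threshold of 0.01. Leaving out the day 4, 24 h array of replicate 1 gave 31 calls. The steroidogenic markers gave 9 lower and none higher of 11 in this test, and the macrophage markers 5 higher and none lower of 11, and their part was not tested.

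**Figure D5:**
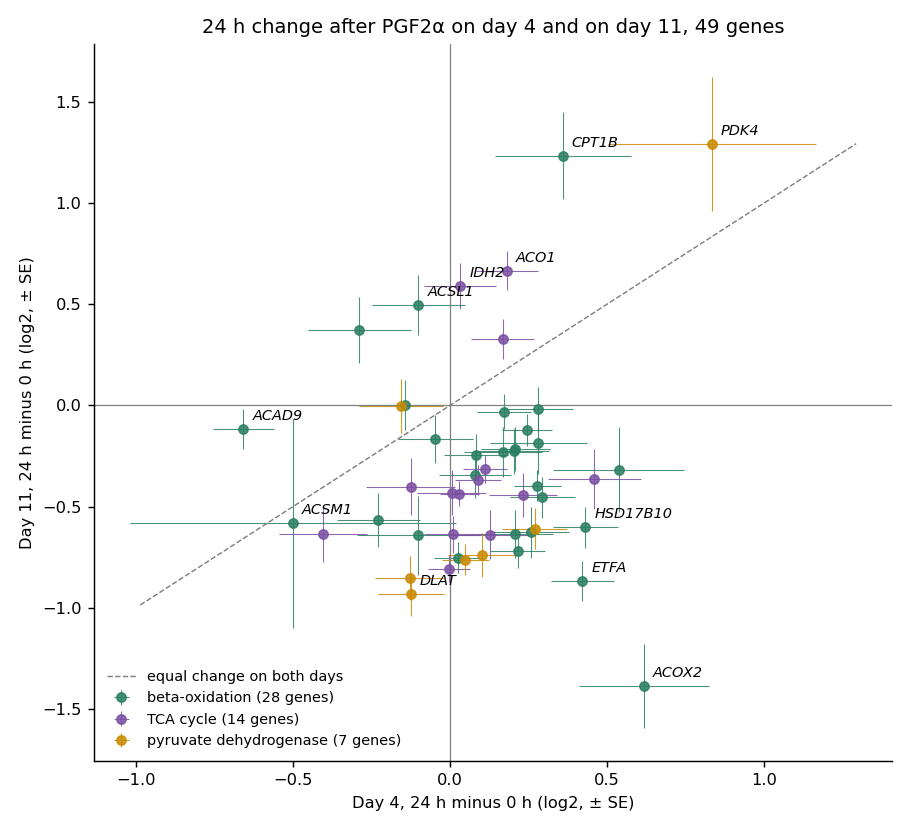
Log2 difference at 24 h against 0 h on day 4 (horizontal) and on day 11 (vertical) for the 49 genes, with SE bars, colour by group of enzymes and a dashed line of equal change. Most points lie below the line; ACOX2 and ETFA are positive on day 4 and negative on day 11, and PDK4 and CPT1B are positive on both.

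Set side by side at 24 h, the mid-cycle gland had 26 genes lower and 8 higher than the early gland (27.4% and 18.8% of named genes). DLAT was lower, at -1.38 ± 0.10 (adjusted p = 3.1e-11), SUCLA2 differed by -1.11 ± 0.14, ACSL3 by -1.07 ± 0.13, IDH3A by -1.02 ± 0.14 and PDHB by -0.97 ± 0.11. ACSM1 (3.70 ± 0.52), PDK4 (1.87 ± 0.33) and CPT1B (1.20 ± 0.22) were higher. DLAT, SUCLA2, ACSL3, IDH3A, ACSM1 and PDK4 already differed in the same direction at 0 h, whereas CPT1B and PDHB were not called then. In the mitochondrial TCA cycle 10 of 11 genes were lower and IDH2 was higher by 0.31 ± 0.11, a call that was lost without any of 6 arrays (adjusted p up to 0.119). Leaving out the day 4, 24 h array of replicate 1 gave 27 lower and 7 higher. At 24 h 10 of 11 steroidogenic markers were lower on day 11 and none higher (mean level 11.67 to 11.89 on day 4 and 10.16 to 10.84 on day 11), and all 11 macrophage and monocyte markers were higher (6.67 to 8.03 and 9.38 to 10.13). Of 11 T and NK cell markers 8 were higher, and of 10 fibroblast markers 5 were lower and 1 higher. Their part was not tested.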

How the data were processed

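RNA of 30 corpora lutea was hybridized to Affymetrix bovine arrays, 1 array a gland, and what the authors deposited is the log2 signal of each probe set after RMA, per the submitters' processing notes. RMA subtracts background, normalizes between arrays and summarises probes, so differences in total RNA between glands are removed. Its version and the arrays normalized together are not given in the sources used here, nor are the genome build and detection calls. Of 24128 probe sets, 112 control probe sets were left out.

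All 30 arrays were fitted with limma 3.58.1 (R 4.3.3), giving each group its own mean, with default empirical Bayes moderation (24 residual degrees of freedom, 28.2 after moderation), and p values were adjusted by Benjamini-Hochberg over the 24016 probe sets tested. The code was checked on simulated data. Genes were named from the platform annotation (13292 probe sets with 1 symbol, 86 with several, 10638 with none), and background shares are over the 9155 named genes.

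The members, gene lists and tests were chosen with earlier results of these data known. Every array's values are given for the 12 members with the largest moderated F over the groups and for PDK4, CS and PDHA1. In each comparison the 8 called members with the largest difference are named. Their SE is given except for ACAA2 and ECI1 on day 11 at 4 h. In the test of the 24 h response between the days, only ACOX2 and ETFA have an SE. Up to 4 called genes of each other list are named with their SE, as are members with the smallest p where a group of enzymes has none called. Other members are named to account for each role. Replicates are separate heifers, per the labels, and the number of arrays limits the precision. Alternatives were quantile and median scaling, array weights, a variance trend, dropping the dimmest 30% of probe sets, a replicate block, fitting only the arrays compared, the mean of a gene's probe sets, a threshold of 0.01 and leaving out each array.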

Additional observations from a re-analysis of the deposited data

Results flagged for a closer look

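The 24 h response differed between day 11 and day 4 by the test of the difference itself in 33 of the 49 genes, and each value below is the log2 response on day 11 minus that on day 4 in limma. The fatty acid activation and carnitine genes had ACSL1 0.60, ACSL5 0.66, CPT1B 0.87, CPT2 -0.37 and CRAT -0.88. The acyl-CoA dehydrogenases and their electron acceptors had ACADS -0.93, ACADSB -0.85, ACAD9 0.54, ETFA -1.29 and ETFB -0.67. The later steps of the mitochondrial spiral had ECHS1 -0.78, HADH -0.84, HADHA -0.43, HSD17B10 -1.03 and ECI1 -0.75, and the peroxisomal genes ACOX2 -2.00 and HSD17B4 -0.42. In the TCA cycle the values were CS -0.80, IDH2 0.56, IDH3G -0.46, OGDH -0.77, DLD -0.44, SUCLG1 -0.64, SUCLG2 -0.67, FH -0.43 and MDH2 -0.47, and among cytosolic enzymes ACO1 0.48 and ME1 -0.82. Pyruvate dehydrogenase and its kinases had PDHA1 -0.81, PDHB -0.72, PDHX -0.84, DLAT -0.81 and PDK2 -0.88. Calls of ACSL1, ACSL5, CPT1B, ACADSB, HADHA, HSD17B4 and DLD were lost when single arrays were left out, and that of ACAD9 with the mean of its probe sets.

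Of the 294 groups of 5 arrays over the 49 genes, 15 held an array far from the rest of its group, and chance gives about 1 in 20. ACADM read 9.71 on day 4, 4 h replicate 4 (lowest, other arrays 9.83 to 9.88). ETFA read 10.22 on day 4, 4 h replicate 3 (highest, other arrays 9.93 to 9.96). ETFB read 9.70 on day 4, 24 h replicate 4 (highest, other arrays 9.55 to 9.57). HADH read 10.10 on day 4, 24 h replicate 4 (highest, other arrays 9.95 to 9.98). ACAT1 read 9.40 on day 11, 24 h replicate 1 (lowest, other arrays 9.76 to 9.86). ECI1 read 8.69 on day 4, 4 h replicate 3 (highest, other arrays 8.36 to 8.43) and 8.99 on day 4, 24 h replicate 4 (highest, other arrays 8.63 to 8.71). ACOX2 read 5.45 on day 4, 0 h replicate 4 (lowest, other arrays 5.73 to 5.84). HSD17B4 read 9.82 on day 4, 0 h replicate 1 (lowest, other arrays 10.07 to 10.13). IDH3A read 8.89 on day 11, 4 h replicate 1 (lowest, other arrays 9.63 to 9.88). OGDH read 9.61 on day 11, 0 h replicate 1 (highest, other arrays 8.98 to 9.15). DLD read 8.94 on day 4, 4 h replicate 4 (lowest, other arrays 9.24 to 9.36) and 8.59 on day 11, 24 h replicate 1 (lowest, other arrays 8.92 to 8.998). DLAT read 8.83 on day 4, 0 h replicate 4 (lowest, other arrays 9.09 to 9.19) and 8.68 on day 4, 24 h replicate 4 (lowest, other arrays 8.98 to 9.07).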

How the results depend on the processing

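No called value of the 49 genes turned its sign under any alternative run. Counts called on day 11 at 24 h (33), between the days at 0 h (27) and at 24 h (34), and for the 24 h difference between the days (33) stayed within 1.5 times under every alternative, the threshold of 0.01 included, though the 6 higher among the last fell to as few as 1. The small counts did not. On day 4 at 4 h, where 0 were called, array weights gave 3, and the replicate block and the fit of only the arrays compared gave 1 each. On day 11 at 4 h, with 15 called, the fit of only the arrays compared gave 4 and the threshold of 0.01 gave 6, and leaving out 1 array gave 9 to 16. On day 4 at 24 h, with 4 called, array weights gave 10, the fit of only the arrays compared 1 and the threshold of 0.01 gave 1, and leaving out 1 array gave 1 to 6. For 24 h against 4 h on day 4, with 19 called, the threshold of 0.01 gave 11. The cause of these shifts was not tested. Arrays that shared a replicate number were weakly correlated in their deviations from the group means (mean 0.02 to 0.13 for the 5 numbers). Single pairs ran from -0.20 to 0.26. Arrays of unlike numbers were not compared, so this does not show whether the numbers pair the samples. The block moved no other count by over 1.5 times. Of 25 further probe sets of 17 genes, 11 were called in the same direction and 1, of IDH1, in the opposite direction on day 11 at 24 h. Between 24 h and 4 h on day 11, the 5 genes higher became 3 with the mean of a gene's probe sets. Signals that may be near background limit what ACSM1 on day 4 and CPT1B can show. The same holds for ACOX2 on day 4 at 0 h and 4 h and on day 11 at 24 h. It also holds for ACAD9 on day 11 at 4 h.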
